A study of Mus musculus with 6 samples.

Results

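The retinal pigment epithelium (RPE) is the pigmented sheet of cells behind the photoreceptors, and its identity is set up and kept by a small group of transcription factors. The 10 factors described here are Mitf, Otx2, Otx1, Pax6, Sox9, Tfec, Lhx2, Six3, Vax2 and Klf4. They are the rows of the deposited table that carry these gene names, and all 10 were found among 33924 listed genes. The table lists 9 of them under these symbols and Tfec under its older symbol, Tcfec.

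The samples were RPE/choroid, the RPE together with the underlying vascular layer, of male C57BL/6J mice, an inbred laboratory strain that carries no transgene or treatment here. Libraries were made from 3 young mice of 1 to 2 months and 3 aged mice, which the sample titles put at 20 to 24 months and the time field at 22 to 24 months. The eyes of a sample were pooled according to the study's methods, which give an age of the young mice and a sex makeup that differ from the labels. The value used for each gene is the authors' mean normalized count over the 6 libraries of both ages. This mean carries no standard deviation and no value per library, so no level below can be split by age, no difference between young and aged mice was tested, and every comparison between genes is a description. A level in tissue RNA also cannot tell apart fewer cells of a type and less RNA per cell.

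Mitf is a basic helix-loop-helix leucine zipper protein that switches on melanin genes and is required for the RPE fate in the optic vesicle. Otx2 and Otx1 are homeodomain proteins that act with Mitf in the developing RPE, and Otx2 is also needed for photoreceptor and bipolar cell fate. Pax6 is the paired-domain and homeodomain protein at the head of eye development in both retina and RPE. Sox9 is an HMG-box factor that drives visual cycle genes in the RPE and is also found in Müller glia. Tfec is a close relative of Mitf that is also expressed in the RPE. Lhx2 and Six3 are eye field homeodomain factors, Vax2 is a homeodomain factor of the ventral eye, and Klf4 is a zinc finger factor of epithelia and of pluripotent cells.

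Of the 10 proteins, 8 bind DNA through a homeodomain or a basic region, and the coding sequence of that stretch shows how closely the members resemble each other. The homeobox codons of Otx2, Otx1, Pax6, Lhx2 and Six3 are printed because residue 50 of the homeodomain is known to shape which bases are bound. They were read from GENCODE transcripts of GRCm38, 180 bases for 60 codons, and capitals mark codon 50.
Otx2: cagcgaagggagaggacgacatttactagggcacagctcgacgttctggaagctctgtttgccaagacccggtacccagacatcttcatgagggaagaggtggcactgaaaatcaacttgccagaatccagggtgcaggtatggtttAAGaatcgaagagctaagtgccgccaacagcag
Otx1: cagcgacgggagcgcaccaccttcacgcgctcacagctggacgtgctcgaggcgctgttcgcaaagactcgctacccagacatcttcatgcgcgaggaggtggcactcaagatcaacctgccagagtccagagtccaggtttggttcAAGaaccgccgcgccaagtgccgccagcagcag
Pax6: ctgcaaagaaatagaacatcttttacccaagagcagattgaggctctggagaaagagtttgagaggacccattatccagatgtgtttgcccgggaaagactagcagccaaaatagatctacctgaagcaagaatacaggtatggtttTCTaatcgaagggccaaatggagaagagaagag
Lhx2: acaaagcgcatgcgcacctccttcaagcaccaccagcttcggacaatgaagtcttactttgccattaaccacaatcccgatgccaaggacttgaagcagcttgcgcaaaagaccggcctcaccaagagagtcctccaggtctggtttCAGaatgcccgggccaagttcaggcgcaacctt
Six3: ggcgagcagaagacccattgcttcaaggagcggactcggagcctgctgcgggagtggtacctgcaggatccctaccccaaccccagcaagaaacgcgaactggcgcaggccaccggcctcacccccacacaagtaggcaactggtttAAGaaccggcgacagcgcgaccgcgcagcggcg

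Codon 50 encodes lysine in Otx2, Otx1 and Six3, glutamine in Lhx2, and serine in Pax6. The Otx1 and Otx2 stretches encode the same residue at 59 of 60 positions and share 80% of their bases. Otx2 and Six3 share the codon 50 residue but only 15 of the 60 residues, and Otx2 and Pax6 share 33.

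The basic helix-loop-helix stretches of Mitf and Tfec are printed for the same reason, also as 60 codons, with capitals on the 9 codons that lie in the basic region.
Mitf: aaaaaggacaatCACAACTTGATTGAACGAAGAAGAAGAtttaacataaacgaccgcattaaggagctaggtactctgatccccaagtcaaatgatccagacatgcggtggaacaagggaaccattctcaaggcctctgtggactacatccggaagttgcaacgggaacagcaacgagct
Tfec: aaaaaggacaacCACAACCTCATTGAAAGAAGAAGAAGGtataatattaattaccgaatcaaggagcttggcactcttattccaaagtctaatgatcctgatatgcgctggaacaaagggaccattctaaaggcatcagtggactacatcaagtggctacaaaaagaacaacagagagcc

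These stretches encode the same residue at 55 of 60 positions and share 78.3% of their bases. The other members of the MiT/TFE family, Tfe3 and Tfeb, match Mitf at 57 and 49 residues.

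Levels of different genes were compared per kilobase of the longest annotated transcript, since a longer transcript gives more reads. The deposited values are not already divided by length. The 6 most frequent values under 0.2, between 0.157 and 0.174, are what 1 read in 1 of the 6 libraries would give, and the 460 of their 576 genes with an annotated length have longest transcripts of 11 to 10299 bases.

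Otx2 was the most abundant member. Its mean normalized count was 10880.4, and its level was 4198 per kilobase of a longest transcript of 2592 bases. The gene (ENSMUSG00000021848) lies on the minus strand of chromosome 14 at 48657677 to 48673819 in GRCm38. Otx2 alone made up 55.7% of the summed per-kilobase level of the 10 members, 7543, and it was the only member above the 90th percentile of the 17914 genes that have a length and reach a mean normalized count of 10, at percentile 95.4.

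Mitf and Pax6 followed at nearly equal per-kilobase levels. Mitf (ENSMUSG00000035158, chromosome 6, 97807052 to 98021349, plus strand) had a mean normalized count of 5647 over a longest transcript of 4881 bases, a level of 1157 per kilobase at percentile 84.3. Pax6 (ENSMUSG00000027168, chromosome 2, 105668900 to 105697364, plus strand) had a mean normalized count of 4941 over 4427 bases, a level of 1116 per kilobase at percentile 83.7. The ratio of Mitf to Pax6 was 1.04, and Pax6 took the higher place when the median transcript length or the coding length was used. Otx2, Mitf and Pax6 together held 85.8% of the members' per-kilobase sum.

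Lhx2, Klf4 and Sox9 stood near the middle of all expressed genes. Lhx2 (ENSMUSG00000000247, chromosome 2, 38339281 to 38369733, plus strand) reached 816 in mean normalized count and 287 per kilobase. The pluripotency and epithelial factor Klf4 (ENSMUSG00000003032, chromosome 4, 55527143 to 55532466, minus strand) had a level of 241 per kilobase from a mean normalized count of 730.3. Sox9 (ENSMUSG00000000567, chromosome 11, 112782224 to 112787760, plus strand) had a level of 228 per kilobase from a mean normalized count of 943. Their percentiles were 56.7, 52.7 and 51.5, and the median over all genes compared was 214 per kilobase.

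Vax2 and Six3 lay below that median. Vax2 (ENSMUSG00000034777, chromosome 6, 83711264 to 83738313, plus strand) had a mean normalized count of 172, which its short transcript of 1242 bases turned into 138 per kilobase at percentile 40.8. Six3 (ENSMUSG00000038805, chromosome 17, 85613608 to 85629302, plus strand) had a level of 129.9 per kilobase from a mean normalized count of 478, at percentile 39.5. Their order depends on the length used. Vax2 was 1.07 times Six3 per kilobase of longest transcript, and 0.427 times Six3 per kilobase of coding sequence.

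The relatives Tfec and Otx1 were the lowest members. Tfec (ENSMUSG00000029553, chromosome 6, 16833373 to 16898441, minus strand) had a level of 36.9 per kilobase from a mean normalized count of 125, at percentile 19.7. Otx1 (ENSMUSG00000005917, chromosome 11, 21994764 to 22002897, minus strand) had a level of 10.2 per kilobase from a mean normalized count of 53.5, at percentile 6.59. Otx2 exceeded Otx1 414 times per kilobase of longest transcript, 243 times per kilobase of coding sequence and 203 times in mean normalized count.

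**Figure D1:**
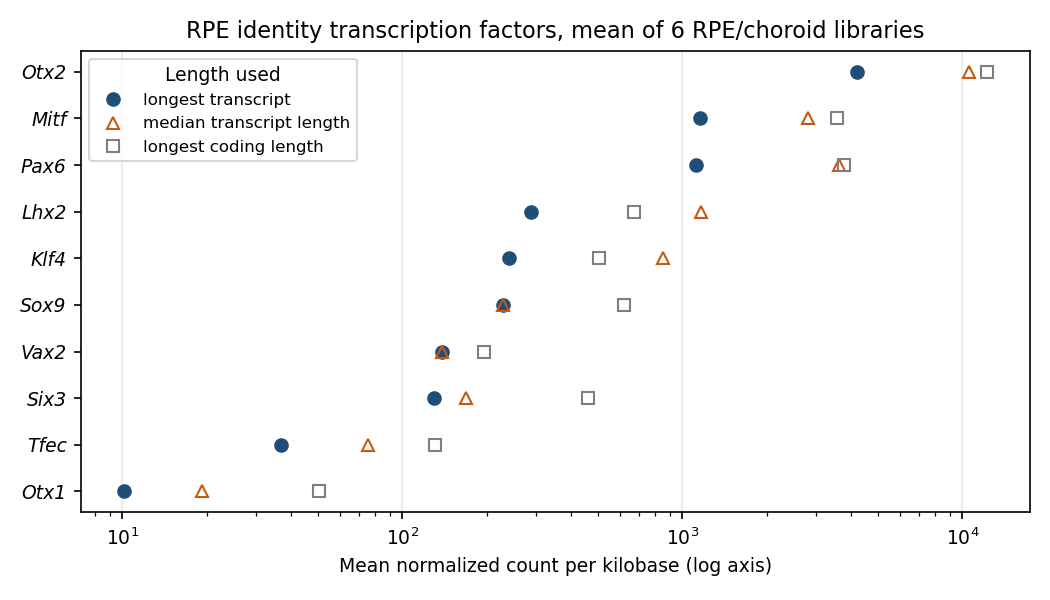
Mean normalized count per kilobase (log axis) of each of the 10 factors, as the authors' mean over 6 RPE/choroid libraries, divided by the longest transcript (filled circles), the median transcript length (triangles) or the longest coding length (squares). Otx2 is highest and Otx1 lowest with each length, while Mitf and Pax6, Klf4 and Sox9, and Vax2 and Six3 change places.

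The 10 factors thus spread over most of the range of expressed genes. All 10 were over a mean normalized count of 10 and 9 were over 100, with Otx1 below it. Of the 10, 6 lay above the median of the genes compared. This count was 7 among genes that reach a mean normalized count of 1, 3 among those that reach 100, and 5 with the median transcript length or the coding length. The members' own median was 235 per kilobase against 214. In all, the members held 0.0607% of the summed mean normalized counts.

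The steps between neighbours in the order were uneven. Otx2 was 3.63 times Mitf, Pax6 was 3.88 times Lhx2, Six3 was 3.52 times Tfec and Tfec was 3.63 times Otx1. Other steps were smaller. Lhx2 was 1.19 times Klf4, Klf4 was 1.06 times Sox9 and Sox9 was 1.65 times Vax2. The sizes of several steps depend on the length. Sox9 was 3.16 times Vax2 per kilobase of coding sequence and 5.48 times in mean normalized count. In mean normalized count Otx2 was only 1.93 times Mitf and Tfec 2.33 times Otx1, and with the median transcript length Six3 was 2.23 times Tfec. With no value per library, whether any of these neighbours differ beyond the spread between mice is unknown. Lhx2 stayed above Klf4 with each length and in mean normalized count. Klf4 fell below Sox9 per kilobase of coding sequence, at 0.813 times, and in mean normalized count, at 0.775 times, but was 3.73 times Sox9 with the median transcript length.

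**Figure D2:**
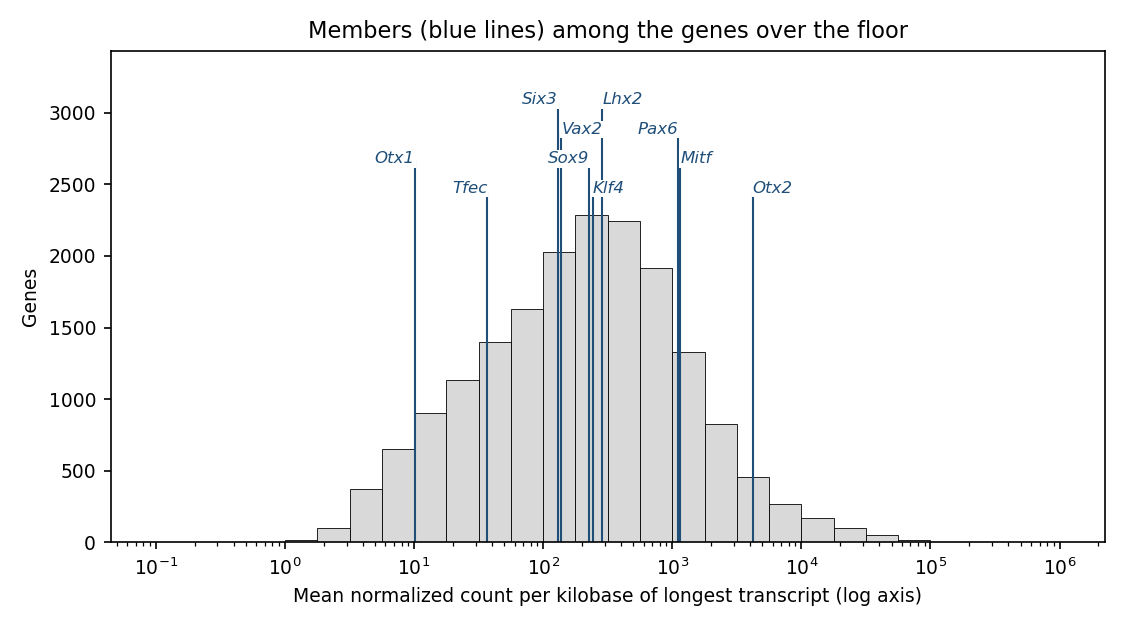
Number of genes (bars) by mean normalized count per kilobase of longest transcript (log axis) for the 17914 genes that have a length and reach a mean normalized count of 10, with a blue line at the level of each factor. Otx2 lies in the upper tail at 4198 per kilobase, Lhx2, Klf4 and Sox9 lie near the middle at 287, 241 and 228, and Otx1 lies in the lower tail at 10.2.

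Each factor belongs to a family of paralogs, and the families show which relative dominates in this tissue. Of the 10 members, 5 had the highest per-kilobase level of their family, namely Mitf, Otx2, Pax6, Lhx2 and Vax2. The same 5 led with the median transcript length and with the coding length.

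In the MiT/TFE family of basic helix-loop-helix factors, Mitf made up 63.6% of the summed per-kilobase level. Tfeb, a regulator of lysosomal genes, was second at 543 per kilobase, and Mitf was 2.13 times as high. Tfe3 had 81.6 per kilobase. Tfec was last, with Mitf 31.4 times as high.

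In the OTX family, Otx2 made up 68.5% of the summed level and Crx 31.3%. Crx, the homeodomain factor of photoreceptors and pinealocytes, had 1917 per kilobase, and Otx2 was 2.19 times as high. Otx1 contributed 0.166%. Otx1 and Otx2 thus had nearly the same homeodomain residues and the most different levels of the family.

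Pax6 stood alone in the PAX family. It made up 94.3% of the summed level of 9 genes and was 18.3 times as high as Pax3, a neural crest and melanocyte factor with 60.9 per kilobase. Pax6 and Pax3 were the only PAX genes that reached a mean normalized count of 10. Pax2, the optic stalk factor, had a mean normalized count of 1.99, and Pax1 was listed at 0.

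Lhx2 and Vax2 also stood apart from their relatives. Lhx2 made up 81.7% of the level of the 8 LHX genes and was 11.8 times as high as Lhx6, at 24.4 per kilobase. Lhx9, which encodes the same 60 homeodomain residues as Lhx2, had 10.6 per kilobase. Vax2 was 22.1 times as high as Vax1, which had a mean normalized count of 6.54.

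Sox9, Six3 and Klf4 did not lead. Sox10, the factor of melanocytes and Schwann cells, had 452 per kilobase, 1.98 times Sox9, and Sox8 had 38.7. The genes of the Six3 family lay close together, with Six5 at 138, Six3 at 129.9 and Six6 at 95.5 per kilobase. Six6, the eye field relative of Six3, matches it at 59 of 60 homeodomain residues. In mean normalized count, Six3 had 478 and Six5 had 415. Klf4 was the sixth of 17 KLF genes, and Klf6, the highest, was 4.01 times as high at 967 per kilobase.

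**Figure D3:**
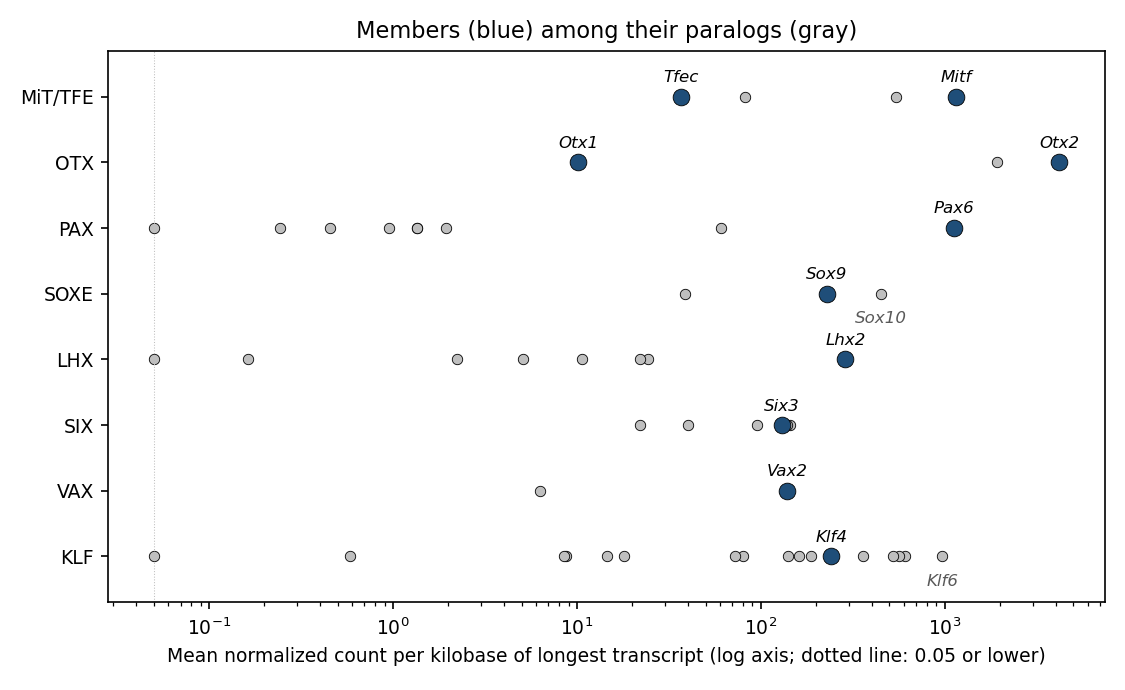
Mean normalized count per kilobase of longest transcript (log axis) of the genes of 8 families of transcription factors, 1 family per row, with the 10 members in blue and their paralogs in gray; values of 0.05 or lower sit on the dotted line. Otx2, Mitf, Pax6, Lhx2 and Vax2 lie at the right end of their rows, whereas Sox10 and Klf6, named in gray, exceed Sox9 and Klf4.

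Reads can be credited to the wrong gene where transcripts overlap or repeat each other. The 50-base words of the members' annotated transcripts were compared on the transcribed strand only. Overlaps with genes on the opposite strand therefore do not count here. Of these words, 100% were found in no other gene for Mitf, Sox9, Tfec and Lhx2. The share was 97.2% for Otx2, whose shared words lie mostly in Gm49154, a transcript on the same strand. It was 99.0% for Vax2 and 99.6% to 99.8% for the remaining members.

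Long noncoding RNAs are annotated opposite to several members, and some were more abundant than the member itself. Six3os1, on the strand opposite to Six3 and sharing 106 exon bases with it, had a level of 382 per kilobase from a mean normalized count of 2142, 2.94 times Six3. Vax2os, which shares no exon base with Vax2, had a level of 267 per kilobase from a mean normalized count of 1086, 1.93 times Vax2. Pax6os1 also shares no exon base with its partner and reached 0.134 times the level of Pax6, at 150.1 per kilobase. These ratios move with the length used. Six3os1 was 10.1 times Six3 with the median transcript length and 4.48 times in mean normalized count, Vax2os was 7.71 and 6.32 times Vax2, and Pax6os1 was 0.0588 and 0.0445 times Pax6. Otx2os1, which shares 154 exon bases with Otx2, and Gm28528, which lies opposite to Six3 and shares 168 with it, were not analysed here. The library kit of the study keeps the strand, and whether the counting used it is not given in the sources used here, so reads from the shared exon bases of Six3 and of Otx2 cannot be assigned with certainty.

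Most of the RPE genes that these factors are known to act on or beside were far more abundant than the factors. All 8 RPE genes of the visual cycle and of RPE transport were over a mean normalized count of 10, with a median of 34564 per kilobase, 147 times that of the 10 members. Ttr, the transthyretin gene, was highest at 335233 per kilobase, and Rpe65, the retinoid isomerase, had 61154. Best1, a chloride channel gene of the RPE and a known Mitf and Otx2 target, was the lowest of the 8 at 39.3 per kilobase, below Otx2, Mitf, Pax6, Lhx2, Klf4, Sox9, Vax2 and Six3.

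All 9 pigment genes were likewise over 10, with a median of 5575 per kilobase, 23.8 times that of the members. Dct, which encodes the melanin enzyme dopachrome tautomerase, had 74294 per kilobase, and the ocular albinism receptor gene Gpr143 was lowest at 1692. Of the 9 pigment genes, 6 exceeded Otx2, the highest factor, as did 6 of the 8 RPE genes.

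The promoters of these genes were searched for the 6-base words that the factors are known to bind. CATGTG and CACGTG are E-boxes of Mitf and its relatives, and TAATCC is the site of homeodomains with the lysine encoded by the Otx2 and Otx1 stretches printed above. RefSeq windows of GRCm38.p6, from 250 bases before to 50 bases after each start, were read on both strands. Of 32851 such windows, 14.2% held CATGTG, 7.15% held CACGTG and 7.06% held TAATCC.

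The table of promoters held windows for 5 of the 9 pigment genes, Tyr, Tyrp1, Dct, Oca2 and Slc24a5, and each of the 5 held CATGTG. None held CACGTG, and 2, Tyrp1 and Dct, held TAATCC. Of the 8 RPE genes, 7 had windows, 10 in all. CATGTG was in 3 of these 10, at Rpe65, Rlbp1 and Rgr, and TAATCC in 3, at Rpe65, Rgr and Best1. Of 14 windows at 7 members, 1 at Otx2 held CATGTG, 1 at Klf4 held CACGTG, and 2, at Otx2 and Mitf, held TAATCC. A match is a stretch of letters and not evidence of binding, and no binding was measured here.

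Bases from 250 before the start up to the start are printed for 3 pigment genes and for Rpe65. Each of these stretches holds CATGTG, and those of Dct and Rpe65 also hold TAATCC. Capitals mark CATGTG and TAATCC on either strand, which read CACATG and GGATTA on the reverse strand. The Tyr stretch lies at chr7:87493513-87493762 on the minus strand, Tyrp1 at chr4:80833963-80834212 on the plus strand, Dct at chr14:118052247-118052496 on the minus strand and Rpe65 at chr3:159598931-159599180 on the plus strand.
Tyr: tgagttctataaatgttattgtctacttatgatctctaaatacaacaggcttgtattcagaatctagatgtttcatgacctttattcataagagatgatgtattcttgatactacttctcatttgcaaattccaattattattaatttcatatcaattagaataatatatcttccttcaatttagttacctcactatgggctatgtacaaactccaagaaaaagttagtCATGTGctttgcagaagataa
Tyrp1: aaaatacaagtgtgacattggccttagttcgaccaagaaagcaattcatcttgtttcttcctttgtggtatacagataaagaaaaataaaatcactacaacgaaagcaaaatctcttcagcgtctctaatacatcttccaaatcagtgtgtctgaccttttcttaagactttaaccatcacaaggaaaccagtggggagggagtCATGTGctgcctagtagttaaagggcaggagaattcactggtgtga
Dct: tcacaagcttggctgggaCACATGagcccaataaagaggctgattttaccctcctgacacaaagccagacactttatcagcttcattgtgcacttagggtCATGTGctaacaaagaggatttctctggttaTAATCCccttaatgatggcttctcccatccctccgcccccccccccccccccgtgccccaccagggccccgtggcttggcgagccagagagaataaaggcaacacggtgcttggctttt
Rpe65: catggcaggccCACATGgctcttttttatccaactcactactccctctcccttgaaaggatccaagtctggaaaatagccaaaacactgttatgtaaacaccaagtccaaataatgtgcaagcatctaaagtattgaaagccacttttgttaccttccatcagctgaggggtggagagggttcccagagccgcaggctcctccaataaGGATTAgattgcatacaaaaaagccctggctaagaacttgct

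In Tyr, which encodes tyrosinase, CATGTG opens 21 bases before the start, and in Tyrp1, a relative of tyrosinase, 46 bases before it. The Tyrp1 window holds TAATCC past the start, outside the printed stretch. Dct holds CATGTG at 232 and 150 bases before the start and TAATCC at 119. In Rpe65 the words open 239 and 42 bases before the start. The levels of these 4 genes were 4287, 39758, 74294 and 61154 per kilobase, against 1157 for Mitf and 4198 for Otx2. Of the other RPE genes with windows, Rlbp1 and Rgr, with CATGTG, had 47916 and 63232 per kilobase. Rdh5, Lrat and Stra6, with neither CATGTG nor TAATCC, had 21213, 9523 and 2500, and Best1, with TAATCC, had 39.3. Whether the words go with the level was not tested.

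A list of 10 other eye field and neural retina factors had a lower median than the members. Of its genes, 7 were over a mean normalized count of 10. The median of all 10 listed genes was 43.2 per kilobase, 0.184 times that of the members. Neurod1, a photoreceptor and amacrine cell factor, was highest at 253 per kilobase, above 6 of the 10 members. Rax, an early eye field factor, had 173. Six6 had 95.5 and Vax1 had 6.27, the relatives of Six3 and Vax2 in this list.

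The dissected tissue held other cell types in which several members are also expressed. Markers of rods and cones were all over a mean normalized count of 10, 10 of 10, with a summed level of 75504 per kilobase and Opn1sw lowest at 1061.5. Otx2 and Crx are known from these cells. Their transcription factors Nrl, Crx and Nr2e3 had 4401, 1917 and 1625 per kilobase, with Nrl above Otx2 and the other two above the remaining 9 members. For the inner retina and Müller glia, where Pax6, Lhx2, Sox9 and Six3 are known, 8 of 8 markers were over 10, with a sum of 29373 per kilobase, nearly all of it from Glul at 26319, a gene that many cell types express. The ganglion cell factor Pou4f2 had 17.7 and the bipolar cell receptor Grm6 had 32.5. For choroidal melanocytes, a further source of Mitf, 5 of 5 markers summed to 4456 per kilobase, led by Ednrb at 3846, with Sox10 at 452 and Mc1r at 35.4. For corneal and conjunctival epithelium, where Klf4 and Pax6 are known, the 5 markers summed to 8148 per kilobase, with Krt12 at 4409 and Klf5 at 8.48. Chondrocyte and scleral markers, of cells that use Sox9, summed to 2523 per kilobase, nearly all of it from Comp at 1502 and Col9a1 at 870.2, with Matn3 at 115, Col2a1 at 30.2 and Acan at 5.87. Markers of skeletal muscle, macrophages, lens, Schwann cells and endothelium summed to 88361, 24718, 13192, 5101 and 4048 per kilobase. No listed marker was at 0. The 8 RPE genes, the markers of the labelled tissue, summed to 540810 per kilobase, most of it from Ttr at 335233, with Best1 at 39.3. The part of each cell type in the level of a member was not tested.

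**Figure D4:**
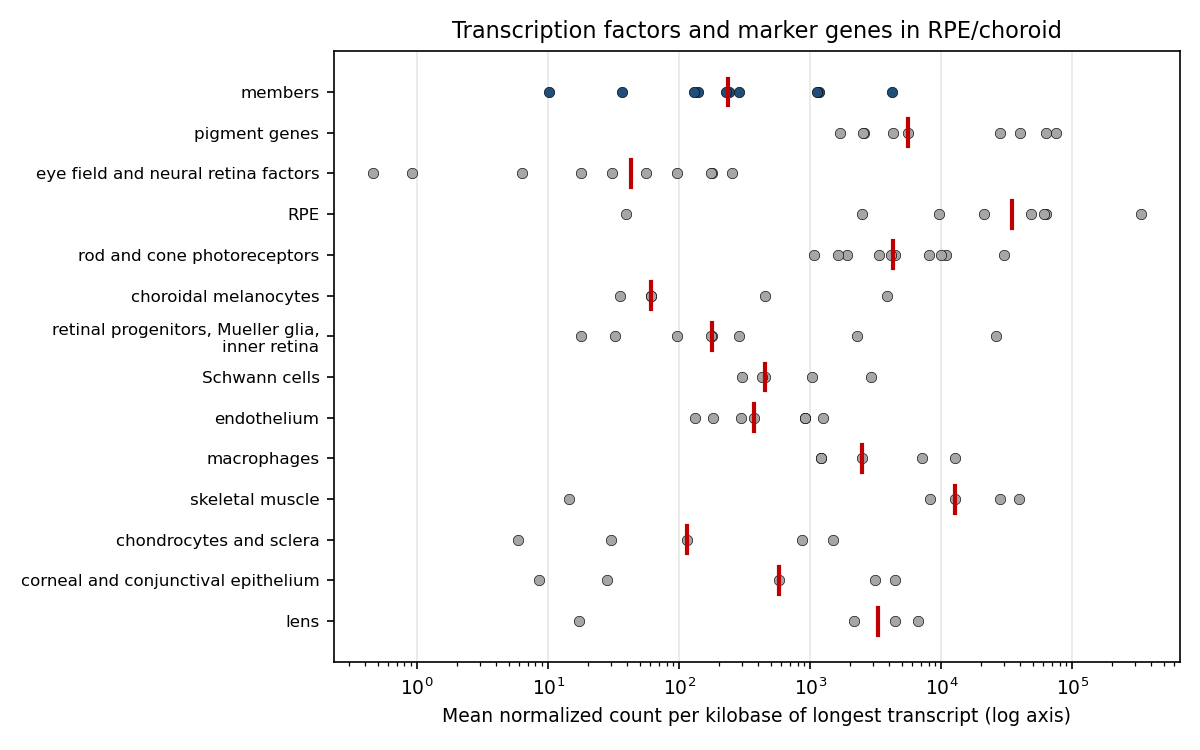
Mean normalized count per kilobase of longest transcript (log axis) of the 10 factors (blue) and of the genes of 13 lists (gray), 1 point per gene, with a red bar at each list's median. The members' median of 235 per kilobase lies below that of the RPE markers, 34564, of the pigment genes, 5575, and of the photoreceptor markers, and above that of the other eye field and neural retina factors, 43.2.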

How the data were processed

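The authors sequenced RPE/choroid RNA of 3 young and 3 aged mice from libraries that the series describes as poly(A)-enriched after removal of ribosomal RNA. According to the study's methods, reads were mapped with STAR to GRCm38 transcripts, quantified, scaled to total counts and compared between ages with DESeq2 by the authors. The deposited table holds 1 line per gene. Its mean normalized count is a signal that the authors averaged over all 6 libraries, so the depth of single libraries is unknown and no interval can be given. The 5 further value columns, the authors' comparison of the ages (log2 fold change, its standard error, the test statistic, the p-value and the adjusted p-value), were not used. The planned test between ages needs values per library and was not run.

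From the mean normalized count, levels per kilobase were computed with the longest transcript of each gene in a GENCODE annotation of GRCm38, which gave a length to 96.9% of the 18479 genes with a mean of at least 10. A percentile is the share of these genes with a lower level per kilobase. Symbols were matched directly or through older symbols. Of the listed symbols, 25 had been turned into dates. Homeobox and basic helix-loop-helix stretches came from GENCODE transcripts and promoters from RefSeq. Scripts (Python 3.11.15, numpy 2.4.6, matplotlib 3.10.9) were tested on simulated data. All 10 members are named, and other lists are given by count, range and median with examples (the highest, the lowest and relatives of the members). The members and lists were chosen with earlier results of these data known, and genes named beyond that rule were chosen after their values were seen. Some genes and sequences of these lists are not reported here. Other floors and lengths were tried as alternatives.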

Additional observations from a re-analysis of the deposited data

How the results depend on the processing

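Otx2, the highest member, exceeded Otx1, the lowest, 414 times per kilobase of longest transcript, 549 times with the median transcript length, 203 with no division by length and 243 with the longest coding length of the annotation, an alternative chosen after seeing the data. The members' median percentile was 52.1, and it was 59.98 among genes that reach a mean normalized count of 1, 39.4 among those that reach 100, 50.8 with the median transcript length and 51.1 with the coding length. Of 40 recomputed percentiles of single members, 18 moved by less than 5 points. Otx2 ranged from 94.2 to 96.5 and Mitf from 80.1 to 86.9, whereas Otx1 ranged from 0.0639 to 20.0. The members near the middle also moved, Lhx2 from 45.1 to 69.2, Klf4 from 40.1 to 62.9 and Sox9 from 38.6 to 59.5. All 10 members were over floors of 0, 1, 10 and 50, and 9 were over 100. Of the families, 5 were led by a member with each length and 6 with no division by length, where Six3 was added.

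No paired analysis was possible because values per library are not given. For the same reason the alternatives to a test between ages (another tool, no filter, the replicate block and leaving out each replicate) were not run. The coding length of RefSeq proteins was not run either. A mean without a spread does not show how far single mice differ.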
